A study of Mus musculus with 6 samples.

Results

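The glycolysis and gluconeogenesis genes of renal tubular cells were examined as a list of 38 members, taken by gene symbol from an array table of 22206 transcript clusters (the array's unit of measurement, roughly 1 gene each). Of these, 34 had a cluster annotated with their symbol, 28 of 32 on the glycolytic side and all 6 on the gluconeogenic side, and each of the 34 had 1 cluster. The glycolytic side holds the enzymes from hexokinase to lactate dehydrogenase, the glucose and monocarboxylate carriers, and the kinases that set the rate of phosphofructokinase and pyruvate dehydrogenase. The members Gpi1, Eno1, Pfkfb1 and Pfkfb2 had no annotated cluster and were not analysed here. A cluster of Eno1b, a near-identical copy of Eno1 that carries Eno1 among its synonyms, lay between 6.29 and 6.56 in all 6 arrays and was not counted as Eno1.

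The cells had been freed with collagenase from mouse kidneys 24 h after blood flow was restored to them, following 30 min of ischemia, so both groups were injured. One group had received vehicle (3 arrays, labelled IR) and the other PT2385 (3 arrays, labelled IRPT), a small molecule that blocks the pairing of the hypoxia-inducible factor HIF-2α with ARNT. PT2385 was given to the whole animal at 10 mg/kg, 16 h before surgery and again 1, 8 and 20 h after it. The protocol spells the injected compound PT2384 in 1 place. Strain, age and sex are not given in the labels, uninjured kidneys were not analysed here, and the labels do not say whether the samples of a group came from separate animals, so the spread between replicates may be technical.

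Glycolysis splits glucose into pyruvate, and lactate dehydrogenase turns pyruvate into lactate. Gluconeogenesis runs the reversible steps backward and bypasses the irreversible ones with pyruvate carboxylase, phosphoenolpyruvate carboxykinase, fructose bisphosphatase and glucose-6-phosphatase. In the kidney, glucose is made in the proximal tubule, which burns fatty acids and uses little glucose, while the thick ascending limb, distal tubule and collecting duct carry most of the hexokinase and other glycolytic activity. Many glycolytic genes are textbook targets of HIF-1, and HIF-2 is held to act less on them.

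All values are log2 signals as deposited, where 1 unit is a doubling of signal, and each difference is PT2385 minus vehicle with its SE. The array medians lay between 6.20 and 6.25. The proximal tubule markers were bright, with a mean signal over 14 markers between 11.05 and 11.31 in the vehicle and between 10.71 and 11.56 in the PT2385 arrays. The cells therefore carried the markers of the labelled tissue. Endothelial markers (7 genes, 7.96 to 8.40) and podocyte markers (4 genes, 7.51 to 7.78) were also above 4.47, the level of the negative control probes (the highest of their 6 array medians), so the isolates were not proximal cells alone. The Y-linked gene Eif2s3y lay between 9.09 and 9.28 in the vehicle arrays and between 3.04 and 3.34 in the PT2385 arrays. Uty lay between 8.58 and 8.76 and then between 2.85 and 3.25, and Kdm5d between 6.34 and 6.58 and then between 3.24 and 3.37. All 3 measured Y-linked genes were thus under the negative control level in every PT2385 array and above it in every vehicle array. For every difference below, an effect of PT2385 and whatever set this Y-linked contrast, such as a difference in sex, cannot be told apart.

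The upstream sequence of 5 members is shown because the cores bound by hypoxia-inducible factors, ACGTG and GCGTG, can be looked for in it. These 5 were picked by hand and do not represent the list. Ldha and Slc16a1 had 3 core runs each, and Hk1, Pkm and Fbp2 had the smallest p-values of the list. Of the 58 member windows, 6 had 3 or more core runs, among them Pdk3 with 4, against 1528 of all 32851 windows. All 5 windows shown hold a core. Start 1 of Hk1 and start 1 of Pkm, which are not shown, had 0 core runs. The window of Pgam2, the member with the highest difference (0.89), also had 0 and is not shown. Each line gives the 250 bases before a RefSeq start (GRCm38.p6), 5′ to 3′ on the strand of the gene. Capitals mark the cores on either strand, and overlapping matches were counted as 1 run. CACGTG is also the E-box read by other factors.
Ldha, start 1, chr7:46845554-46845803, plus strand: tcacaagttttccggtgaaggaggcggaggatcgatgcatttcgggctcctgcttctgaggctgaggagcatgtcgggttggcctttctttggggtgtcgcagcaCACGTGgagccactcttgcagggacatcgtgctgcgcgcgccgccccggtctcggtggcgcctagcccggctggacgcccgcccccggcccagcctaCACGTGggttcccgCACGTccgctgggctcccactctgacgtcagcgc
Slc16a1, chr3:104638414-104638663, plus strand: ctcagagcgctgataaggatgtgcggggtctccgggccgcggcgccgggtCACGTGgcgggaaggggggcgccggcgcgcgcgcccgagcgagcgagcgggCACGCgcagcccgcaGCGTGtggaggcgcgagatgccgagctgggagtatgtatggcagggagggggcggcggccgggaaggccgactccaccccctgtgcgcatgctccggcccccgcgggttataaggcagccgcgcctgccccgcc
Hk1, start 2, chr10:62340422-62340671, minus strand: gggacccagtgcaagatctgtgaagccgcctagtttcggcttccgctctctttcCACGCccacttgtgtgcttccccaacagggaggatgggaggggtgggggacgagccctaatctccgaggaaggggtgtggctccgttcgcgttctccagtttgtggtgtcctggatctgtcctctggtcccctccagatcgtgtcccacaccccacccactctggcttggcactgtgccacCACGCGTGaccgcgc
Pkm, start 2, chr9:59656977-59657226, plus strand: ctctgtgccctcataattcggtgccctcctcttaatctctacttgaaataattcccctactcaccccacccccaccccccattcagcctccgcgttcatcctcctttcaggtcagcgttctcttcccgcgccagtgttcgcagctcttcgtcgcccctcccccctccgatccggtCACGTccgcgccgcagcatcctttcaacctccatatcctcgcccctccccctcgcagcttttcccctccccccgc
Fbp2, chr13:62858401-62858650, minus strand: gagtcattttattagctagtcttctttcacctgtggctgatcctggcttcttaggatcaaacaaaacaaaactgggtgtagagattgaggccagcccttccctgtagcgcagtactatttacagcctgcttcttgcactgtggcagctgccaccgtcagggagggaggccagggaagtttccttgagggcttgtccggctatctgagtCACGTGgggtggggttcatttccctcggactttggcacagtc
Of 37 members with an entry, 29 had a core in at least 1 window, which is 78.4%, against 41.5% of all 27025 genes with an entry. By window the shares were 39 of 58 (67.2%) and 38.6% of 32851. Among the measured members, the 26 with a core had a median difference of 0.10 and the 7 without had 0.18. Matches are letters in these windows and were not tested as binding sites. Both cores hold the bases CG, and the windows of the members and of all genes were not matched for base composition. The higher share among the members was therefore not tested as an enrichment of these cores. Slc2a3 had no entry.

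Of the 34 measured members 0 passed the threshold, an adjusted p under 0.05 over all clusters with limma, at which 0.829% of the 22206 clusters passed. At an unadjusted p under 0.05, 7 members were higher in the PT2385 group (20.6%, against 7.94% of all clusters) and 3 were lower (8.82%, against 6.54%). The vehicle and PT2385 values were fully apart for 9 higher members (26.5%, against 11.6% of all clusters and 10.6% of the clusters brighter than the median) and for 1 lower member (2.94%, against 9.13% and 13.9%). The brighter clusters are given because 30 of the 34 members were among them. The members were chosen with earlier results of these data known, so these shares describe the list and were not tested as an excess. The median difference was 0.10 over the 28 glycolytic members and 0.14 over the 6 gluconeogenic members, with 0.02 over all clusters. The gluconeogenic median was -0.01 without vehicle replicate 1 and 0.03 without PT2385 replicate 1. The glycolytic median was 0.16 without vehicle replicate 3, 0.06 without PT2385 replicate 3 and 0.06 with each array centred on its median. Differences ran from -0.70 for Slc16a1 to 0.89 for Pgam2, and 17 members lay within 0.2 of 0.

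**Figure D1:**
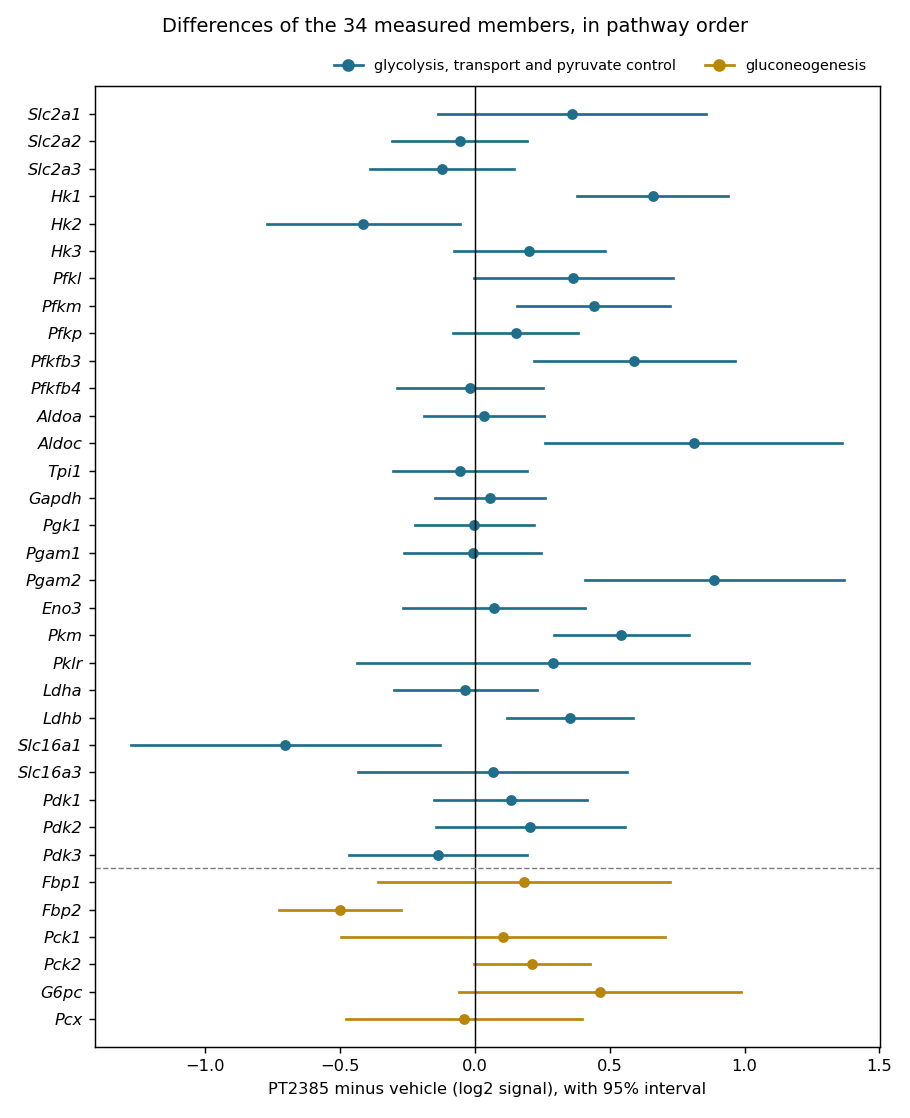
Difference of each of the 34 measured members, PT2385 minus vehicle, in log2 signal on the horizontal axis, with its 95% interval from the limma fit as a bar (3 arrays per group). The members are listed in pathway order, the 28 glycolytic ones above the dashed line and the 6 gluconeogenic ones below it. Pgam2 (0.89) lies farthest right, Slc16a1 (-0.70) farthest left, and Pgk1 at 0.00.

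Glucose enters and leaves tubular cells through the carriers of the Slc2a family. Slc2a2, the basolateral carrier through which proximal cells release glucose, had 12.23, 12.16 and 12.32 under vehicle and 12.21, 12.02 and 12.32 under PT2385. This bright signal was nearly level, with a difference of -0.06 (SE 0.11, 95% interval -0.31 to 0.20). Slc2a1, the widespread basal carrier, had 9.41, 10.26 and 9.86 under vehicle and 9.89, 10.33 and 10.38 under PT2385. The groups overlapped, with vehicle replicate 1 lowest, and the difference was 0.36 (SE 0.22, adjusted p = 0.486). Slc2a3, the carrier of neurons and leukocytes, had means of 3.59 and 3.47, under the negative control level of 4.47, so it was not above background.

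Hexokinase traps glucose in the cell as glucose-6-phosphate. Hk1, the widespread form, had log2 signals of 8.93, 9.12 and 8.95 under vehicle and 9.85, 9.67 and 9.46 under PT2385. All 3 PT2385 values were above all 3 vehicle values, with a difference of 0.66 (SE 0.12, 95% interval 0.38 to 0.94, adjusted p = 0.0566), the smallest p of the list. That p lay just outside the threshold and passed it under 6 of 16 alternatives, with adjusted p between 0.0212 and 0.240. Hk2, the form that insulin and hypoxia induce in other tissues, pointed the other way, with 5.65, 5.97 and 6.04 under vehicle and 5.20, 5.72 and 5.51 under PT2385. Its groups overlapped and the difference was -0.41 (SE 0.16, adjusted p = 0.285). Hk3, which is most abundant in myeloid cells, had 6.59, 6.15 and 6.41 and then 6.55, 6.64 and 6.58, a difference of 0.20 (SE 0.12). Signals of Hk2 and Hk3 were no brighter than some background control probes (2.41 to 7.47), so their differences may be understated.

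Phosphofructokinase, the committed step, is built from the subunits Pfkl, Pfkm and Pfkp, named for liver, muscle and platelet. Pfkm had 6.70, 6.86 and 6.97 under vehicle and 7.42, 7.37 and 7.08 under PT2385. Its groups did not overlap, and the difference was 0.44 (SE 0.12, adjusted p = 0.180). Pfkl had 7.28, 7.57 and 7.95 under vehicle and 8.06, 7.97 and 7.87 under PT2385, where vehicle replicate 3 reached into the PT2385 range, and the difference was 0.37 (SE 0.16, adjusted p = 0.349). Pfkp, with 8.56, 8.80 and 8.75 and then 8.79, 8.89 and 8.90, had the smallest difference of the 3, 0.15 (SE 0.10). All 3 subunits thus had positive differences, as did 53.5% of all clusters, and 0 of the 3 passed.

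The PFKFB enzymes make and remove fructose-2,6-bisphosphate, which switches phosphofructokinase on and fructose bisphosphatase off. Pfkfb3, the form with the highest kinase over phosphatase activity, had 6.72, 6.83 and 7.21 under vehicle and 7.41, 7.34 and 7.78 under PT2385. The groups did not overlap, and the difference was 0.59 (SE 0.16, adjusted p = 0.173). Pfkfb4 had means of 6.54 and 6.52 and a difference of -0.02 (SE 0.12). Both lay mostly within the background control range.

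Aldolase and phosphoglycerate mutase are each encoded by a widespread form and by forms of particular tissues. Aldoa, the muscle and widespread aldolase, had 11.29, 11.43 and 11.32 under vehicle and 11.31, 11.34 and 11.49 under PT2385, a difference of 0.04 (SE 0.10, 95% interval -0.19 to 0.26). Aldoc, the brain form, had 6.48, 6.44 and 6.19 and then 7.79, 7.04 and 6.72, a difference of 0.81 (SE 0.24, adjusted p = 0.197). The groups of Aldoc did not overlap, and PT2385 replicate 1 stood highest. Without that array its difference was 0.51. Pgam1, the widespread phosphoglycerate mutase, had 9.84, 10.14 and 10.05 and then 9.91, 10.10 and 9.99, which overlap. Pgam2, the muscle form, in contrast had 6.85, 7.26 and 7.06 under vehicle and 8.43, 7.85 and 7.56 under PT2385. The difference of Pgam2 was 0.89 (SE 0.21, adjusted p = 0.120), with groups apart, and 0.65 without PT2385 replicate 1. Vehicle signals of Pgam2, Aldoc and Pfkm were all under the brightest background control probe (7.47), so their differences too may be understated.

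The steps from the triose phosphates to phosphoglycerate were nearly level. Tpi1, which interconverts the triose phosphates, differed by -0.05 (SE 0.11) and Gapdh, which oxidises glyceraldehyde-3-phosphate, by 0.06 (SE 0.09, 95% interval -0.15 to 0.26). Pgk1, which makes the first ATP of the pathway and is a much used HIF-1 target, had 10.57, 10.67 and 10.47 under vehicle and 10.64, 10.54 and 10.53 under PT2385. The groups overlapped throughout, and the 95% interval of its difference was -0.22 to 0.22. Eno3, the muscle enolase, had means of 5.56 and 5.63. Probes for Gapdh, Pgk1, Tpi1, Ldha and Pgam1 can pick up processed copies elsewhere in the genome, so these signals may not be from 1 gene alone. Signals of Gapdh (12.39 to 12.55) and of Slc2a2 were not far below the array maxima of 13.39 to 13.49, and whether differences are compressed there was not tested.

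Pyruvate kinase ends the pathway. Pkm, the gene of the muscle and embryonic forms, had 9.81, 10.13 and 10.03 under vehicle and 10.48, 10.54 and 10.58 under PT2385. The PT2385 values lay close together and above every vehicle value, with a difference of 0.54 (SE 0.11, 95% interval 0.29 to 0.79, adjusted p = 0.0764). The adjusted p was 0.0471 with a robust variance prior, 0.0338 with array weights and up to 0.287 in the other alternatives. Pklr, the liver and red cell form that proximal cells use, had 8.50, 8.91 and 9.26 and then 8.50, 9.20 and 9.85. Its pooled SD, 0.55, was the widest of the 34 members, and its difference was 0.29 (SE 0.32). It was 0.63 without PT2385 replicate 1, -0.04 without PT2385 replicate 3, 0.10 without vehicle replicate 1 and 0.47 without vehicle replicate 3. The single Pkm cluster does not separate the splice forms.

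Pyruvate is then reduced to lactate, exported or oxidised. Ldha, the subunit that favours lactate formation, had 11.49, 11.28 and 11.28 under vehicle and 11.13, 11.38 and 11.43 under PT2385, a difference of -0.03 (SE 0.12) with overlapping groups. Ldhb, the heart subunit, had 10.19, 10.00 and 10.13 and then 10.58, 10.42 and 10.38. Here the groups were apart, with a difference of 0.35 (SE 0.10, adjusted p = 0.190). Slc16a1, the widespread proton-coupled lactate carrier, had the most negative difference of the list. Its signals were 8.20, 8.96 and 8.54 under vehicle and 7.47, 7.75 and 8.37 under PT2385, a difference of -0.70 (SE 0.25, adjusted p = 0.263), with PT2385 replicate 3 inside the vehicle range. Slc16a3, the lactate exporter of glycolytic cells and a HIF target, had 5.01, 4.70 and 5.38 and then 4.73, 5.48 and 5.08, within the background range. The pyruvate dehydrogenase kinases Pdk1, Pdk2 and Pdk3, which hold pyruvate back from the mitochondria, differed by 0.13, 0.21 and -0.14 (SE 0.12, 0.15 and 0.14), all with overlapping groups. Signals of Pdk3 (6.65 to 7.26) were under the brightest background control probe (7.47), so its difference may be understated.

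**Figure D2:**
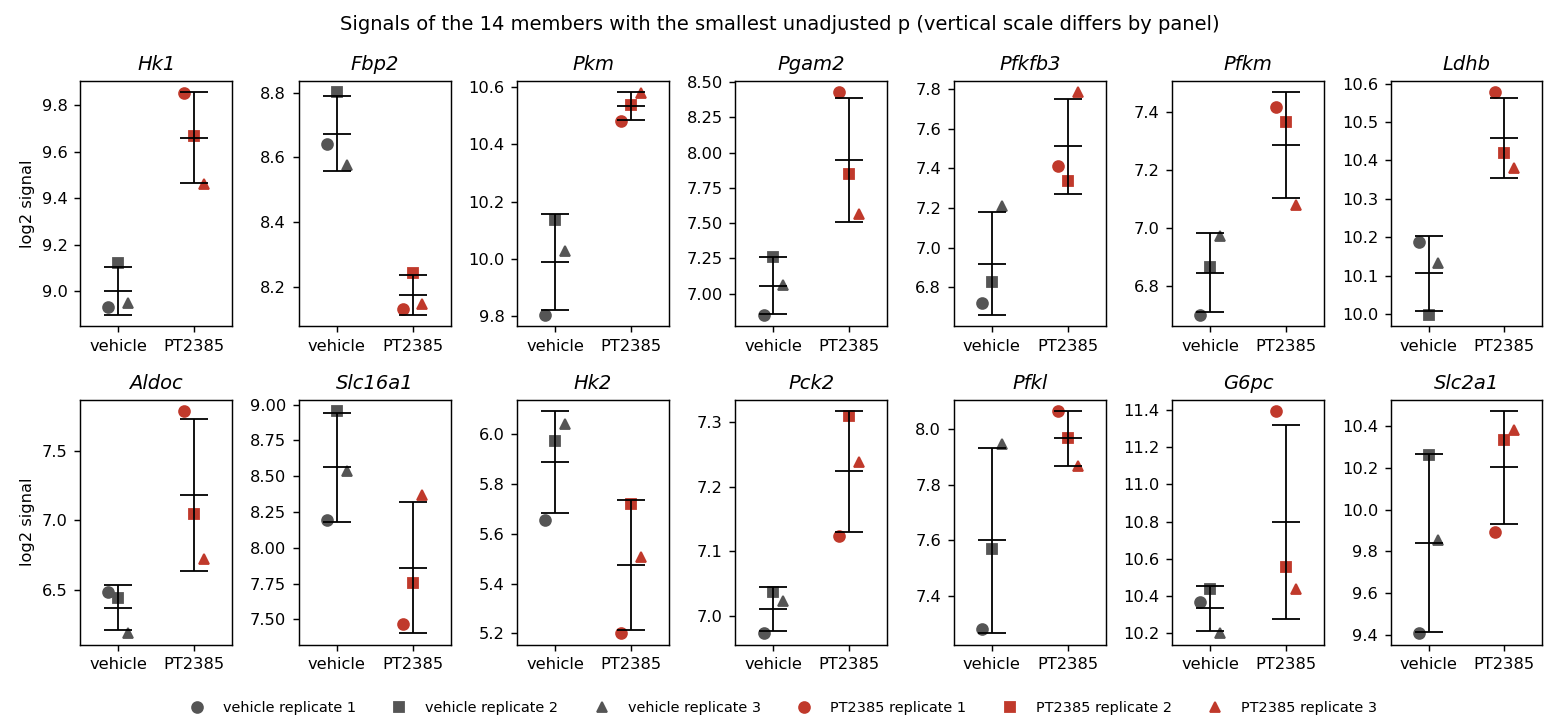
Log2 signal (vertical axis, own scale in each panel) in each array for the 14 members with the smallest unadjusted p, vehicle at left and PT2385 at right. Points are arrays with a symbol for each replicate number, and the bars give the mean and SD of 3 arrays. The groups are apart for Hk1, Fbp2, Pkm, Pgam2, Pfkfb3, Pfkm, Ldhb, Aldoc, Pck2 and G6pc and overlap for Slc16a1, Hk2, Pfkl and Slc2a1.

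The gluconeogenic members differed in direction. Fbp2, the muscle-type fructose bisphosphatase, had 8.64, 8.80 and 8.58 under vehicle and 8.13, 8.24 and 8.15 under PT2385. All PT2385 values were below all vehicle values, with a difference of -0.50 (SE 0.10, 95% interval -0.73 to -0.27, adjusted p = 0.0745). Its adjusted p was 0.0492 when only clusters brighter than the median were tested and 0.0426 with array weights. Fbp1, the liver and kidney form and the neighbour of Fbp2 on chromosome 13, had 10.62, 10.39 and 10.69 and then 11.33, 10.64 and 10.28. The PT2385 values of Fbp1 enclosed the vehicle values, and its difference was 0.18 (SE 0.24), or -0.11 without PT2385 replicate 1.

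Pck1, the cytosolic phosphoenolpyruvate carboxykinase and the main control point of renal glucose synthesis, had 11.09, 12.26 and 11.87 under vehicle and 11.62, 11.98 and 11.95 under PT2385. The vehicle arrays alone spanned more than the whole PT2385 group, and the difference was 0.11 (SE 0.26, 95% interval -0.49 to 0.70). Pck2, the mitochondrial form, had 6.97, 7.04 and 7.02 and then 7.12, 7.31 and 7.24, apart by 0.21 (SE 0.09, adjusted p = 0.348). All values of Pck2 were under the brightest background control probe (7.47), so its difference may be understated. G6pc, the catalytic subunit of glucose-6-phosphatase that frees glucose, had 10.37, 10.44 and 10.20 under vehicle and 11.40, 10.55 and 10.44 under PT2385. Its groups were just apart, and most of the difference of 0.46 (SE 0.23, adjusted p = 0.396) came with PT2385 replicate 1, since it was 0.16 without that array. Pcx, the pyruvate carboxylase gene, had means of 9.32 and 9.28 and a difference of -0.04 (SE 0.19).

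The balance between isoforms was followed as the log2 signal of 1 form minus that of another in the same array. Probes of different genes differ in response, so only the shift of this value between groups was read. Of 14 pairs planned 13 could be formed, and an exact 2-sided permutation test of 3 against 3 arrays cannot give a p below 0.1. That p is reached whenever the groups do not overlap. Of all single clusters, 11.6% were apart with PT2385 higher and 9.13% with PT2385 lower. The p of 0.1 was reached by 4 pairs, each with adjusted p = 0.325 over the 13. Each of these 4 holds a member whose own groups were apart (Hk1, Pgam2, Aldoc or Ldhb). Hk1 minus Hk2 shifted by 1.07, from 3.11 ± 0.19 to 4.18 ± 0.41 (SD, n = 3 each), toward Hk1. Pgam1 minus Pgam2 shifted by -0.90, from 2.95 ± 0.06 to 2.05 ± 0.50, toward the muscle form. Aldoa minus Aldoc shifted by -0.78, from 4.98 ± 0.17 to 4.20 ± 0.63, and Ldha minus Ldhb by -0.39, from 1.24 ± 0.08 to 0.86 ± 0.27 (SD, n = 3 each). Without PT2385 replicate 1 the shift was -0.44 for Aldoa minus Aldoc and -0.24 for Ldha minus Ldhb. In the last 3 pairs the first form had a difference of -0.01 (Pgam1), 0.04 (Aldoa) and -0.03 (Ldha), and the second form 0.89, 0.81 and 0.35, with 0 of the 6 past the threshold.

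The other pairs overlapped between groups. Pfkl minus Pfkm shifted by -0.08 and Pfkp minus Pfkm by -0.29 (exact permutation p = 0.7 and 0.2). Pkm minus Pklr shifted by 0.25 with a pooled SD of 0.49, and Pck2 minus Pck1 by 0.11 with a pooled SD of 0.41. The sign of 3 shifts turned when 1 array was left out, to 0.03 for Pfkl minus Pfkm without vehicle replicate 3, to -0.06 for Pkm minus Pklr without PT2385 replicate 1 and to -0.14 for Pck2 minus Pck1 without vehicle replicate 2. Slc16a3 minus Slc16a1 shifted by 0.77 (pooled SD 0.57), carried by the lower signal of Slc16a1. Slc2a1 minus Slc2a2 shifted by 0.42 (pooled SD 0.40).

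**Figure D3:**
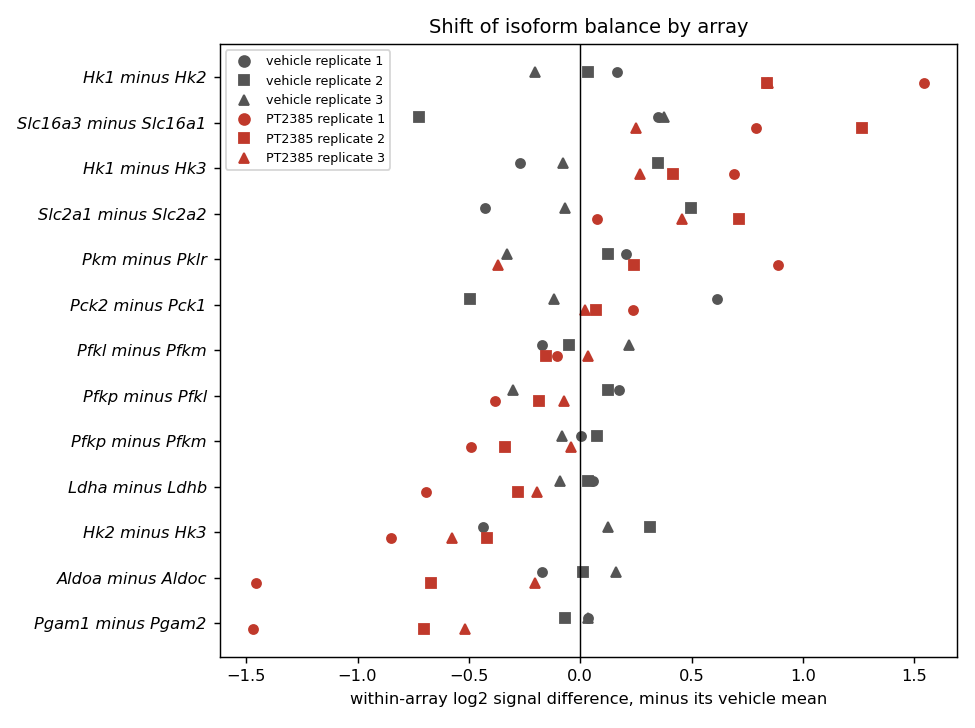
Shift of isoform balance for 13 pairs. The horizontal axis is the within-array difference of the 2 log2 signals minus its mean over the vehicle arrays, each point is 1 array, and symbols give the replicate number. The PT2385 points are apart from the vehicle points for Hk1 minus Hk2 at the right and for Ldha minus Ldhb, Aldoa minus Aldoc and Pgam1 minus Pgam2 at the left, and PT2385 replicate 1 lies farthest out in each of these 4 pairs. For Aldoa minus Aldoc the nearest arrays of the groups almost touch.

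Members varied among themselves within groups. The median pooled SD was 0.16, against 0.14 over all clusters, and after Pklr the widest were Pck1 (0.44), Slc16a1 (0.42), Aldoc (0.40), Fbp1 (0.40) and G6pc (0.38). These 6 include 3 of the 6 gluconeogenic members. Vehicle replicate 1 was the lowest of the 6 arrays for 13 of the 34 members. The mean deviation of the 28 glycolytic members from their 6-array average was -0.17, -0.06 and -0.03 under vehicle and 0.07, 0.08 and 0.10 under PT2385. These means do not overlap between the groups. Of the 28 members, 7 were apart on their own, all higher (25%, against 11.6% of all clusters), and 14 had differences within 0.2 of 0. This share too describes a list chosen with earlier results known and was not tested. For the 6 gluconeogenic members the same value was -0.20, 0.05 and 0.04 under vehicle and 0.21, 0.00 and -0.10 under PT2385, which overlap.

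Signals of markers of nephron segments and of immune cells also differed between the groups. In bulk samples, more cells of a type and more RNA per cell cannot be told apart. The 8 thick ascending limb markers deviated by -0.49, -0.75 and -0.31 under vehicle and by 1.01, 0.44 and 0.10 under PT2385, with 7 of 8 positive and 1 past the threshold (Cldn19). The 6 distal convoluted tubule markers had a mean signal of 7.54 to 7.89 under vehicle and 8.19 to 8.87 under PT2385. The same ranges were 7.83 to 8.20 and 8.54 to 8.78 for the 8 principal cell markers. For the 8 intercalated cell markers they were 8.15 to 8.30 and 8.56 to 9.03. All members of these 3 lists were positive, against 53.5% of all clusters, and 0 passed the threshold. The 14 proximal tubule markers deviated by 0.08, -0.11 and 0.14 under vehicle and by 0.40, -0.06 and -0.45 under PT2385, so PT2385 replicate 1 was highest for proximal and distal markers alike. Of the 14, 5 were positive and 9 negative, and Slc22a6, an organic anion carrier gene, fell by 0.97 on the log2 scale (adjusted p = 0.00572). The 6 markers of the last proximal segment, S3, deviated by 0.34, 0.40 and 0.86 under vehicle and by -0.25, -0.71 and -0.64 under PT2385. Of these, Acsm3 and Slc7a13, which are known for higher expression in male mouse kidney, fell by 5.14 and 4.09 on the log2 scale. The other 4 S3 markers had positive differences, Slc5a1 0.68, Slc22a7 1.00, Slc5a10 1.02 and Slc3a1 0.12, with 0 past the threshold, and the median of the 6 was 0.40. Of the 34 members, 9 had their highest signal in PT2385 replicate 1 (Hk1, Pfkl, Pfkm, Aldoc, Pgam2, Ldhb, Pdk2, Fbp1 and G6pc) and as many had it in PT2385 replicate 3, where the marker lists of proximal and distal segments were lowest among the PT2385 arrays, S3 apart. The 8 macrophage markers had a mean signal of 6.40 to 6.91 under vehicle and 6.28 to 6.30 under PT2385, with 3 positive and 5 negative differences and a median of -0.07. Of these Lyz2, a lysozyme gene, fell by 1.19 on the log2 scale (adjusted p = 0.0202). Ccr2 and Mrc1 differed by -1.15 and -0.57, and the complement genes C1qa, C1qb and C1qc by 0.11, 0.23 and 0.15, with 0 of these 5 past the threshold. Of 6 neutrophil markers 5 were negative, with Csf3r past the threshold (-1.04, adjusted p = 0.0326). Signals of Csf3r, Ccr2, Mrc1, C1qa and C1qc were all under the brightest background control probe (7.47), so their differences may be understated. The part of these cell markers in the differences of the glycolytic members was not tested.

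**Figure D4:**
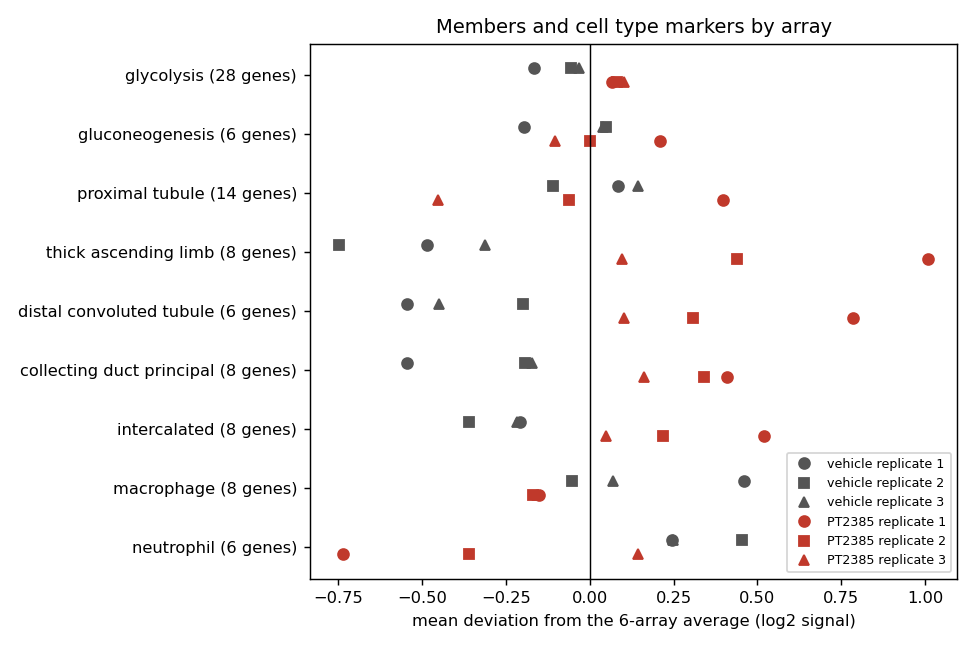
Mean deviation of a gene list from its 6-array average, in log2 signal, for the glycolytic and gluconeogenic members and for markers of kidney and immune cells. Each point is 1 array, with the number of measured genes beside each name. The distal lists and the glycolytic members lie higher in the PT2385 arrays, the gluconeogenic and proximal tubule lists overlap between groups, and the macrophage list lies lower.

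Further genes of glucose metabolism gave 1 call in 52 measured of 59 listed, against 0.829% of all clusters. Ldhd, the mitochondrial enzyme that oxidises D-lactate, had 10.53, 10.60 and 10.86 under vehicle and 9.83, 9.71 and 9.75 under PT2385. It fell by 0.90 on the log2 scale (SE 0.11, adjusted p = 0.0131), and its adjusted p was 0.0944 without PT2385 replicate 2. At an unadjusted p under 0.05, 6 of the 52 were higher (11.5%, against 7.94% of all clusters) and 5 lower (9.62%, against 6.54%), and their median difference was 0.00. Ppargc1a, the coactivator of mitochondrial and gluconeogenic genes, had 9.83, 9.63 and 9.77 under vehicle and 10.92, 10.59 and 10.29 under PT2385, a difference of 0.85 (SE 0.16, adjusted p = 0.0534).

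Around the uptake and use of sugars, 0 of 5 glucose and fructose uptake genes passed. The fructose carrier gene Slc2a5 differed by 0.80 (SE 0.19, adjusted p = 0.126), the sodium-glucose cotransporter gene Slc5a1 by 0.68 (SE 0.19) and the ketohexokinase gene Khk, the first step of fructose breakdown, by 0.55 (SE 0.13, adjusted p = 0.118), each with groups apart. Of the 52 further genes, 6 were apart and higher (11.5%, against 11.6% of all clusters) and 4 apart and lower (7.69%, against 9.13%). Slc16a7, which encodes the high-affinity monocarboxylate carrier MCT2, differed by 1.09 (SE 0.33, adjusted p = 0.205), with 9.25, 9.18 and 9.10 under vehicle and 11.14, 10.11 and 9.55 under PT2385. In the pentose phosphate pathway Pgd differed by -0.68 (SE 0.19) and Taldo1 by -0.40 (SE 0.18). Of the glycogen genes, Ugp2 differed by -0.34 (SE 0.12) and Gbe1 by -0.44 (SE 0.17). Among the remaining lists the smallest p-values belonged to the following genes, given with their differences in parentheses. They were Eno2 (0.19) and Bpgm (-0.14), Got1 (0.31) and Mdh1 (0.19), Gpd1 (-0.26) and Hnf4a (-0.25), and 0 of these passed. Epas1, which encodes HIF-2α and is named here as the target of PT2385, had a difference of -0.01 (SE 0.10), and Hif1a, which encodes HIF-1α, had 0.01 (SE 0.12).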

How the data were processed

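The values were used as the authors deposited them, as log2 signals, 1 per transcript cluster and array, from Affymetrix whole-transcript arrays hybridised with biotin-labelled targets. Per the submitters' processing notes the software was Transcriptome Analysis Console, with no version. How probes were summarised, background-corrected and normalized is not given in the sources used here. Groups were read from the sample titles. The members and lists were chosen with earlier results of these data known.

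The 6640 control rows were left out and all 22206 other clusters were fitted with limma 3.58.1 in R 4.3.3 (lmFit, eBayes, treatment as the only term), with 2-sided p-values adjusted by Benjamini-Hochberg over all of them. Clusters were named from the platform annotation, in which 19572 had 1 symbol, 2634 had none and 0 had several. No symbol needed updating by Entrez ID. No detection calls were used, and the number of arrays limits the precision. The fit was checked on simulated data. That check set a required share of calls only for differences larger than any of the members. It does not show whether differences of their size would be called. Every member was accounted for. Those past the threshold, the 14 with the smallest p among the rest and both isoforms of a described pair got each array's value. Of the other pathway genes, those past the threshold and the 2 with the smallest p of each role were named. Marker lists were to be given by their levels with 1 or 2 leading genes by signal, but the markers named were chosen after their values were seen, as were Epas1 and Hif1a. Alternatives covered the model, normalization, filters, variance prior, weights and single arrays left out. Upstream sequences came from RefSeq (GRCm38.p6).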

Additional observations from a re-analysis of the deposited data

How the results depend on the processing

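The count of members past the threshold, 0 as reported and with most alternatives, was 1 with quantile normalization and 1 with cyclic loess (Hk1 in both), 2 when only clusters above the median signal were tested (Hk1 and Fbp2), 2 with a trended and robust variance prior (Hk1 and Pkm) and 3 with array weights (Hk1, Pkm and Fbp2). It ran from 0 to 1 when single arrays were left out, with Hk1 called without PT2385 replicate 3. The count of other glucose genes, 1 as reported, was 2 with the replicate block, quantile normalization, clusters above the median signal, the robust prior and array weights, each time Ldhd and Ppargc1a, and ran from 0 to 2 with single arrays left out. With the replicate number as a block 0 members passed. The labels do not say whether same-numbered samples belong together. Deviations from the group means correlated at 0.14, 0.03 and -0.06 for same-numbered samples and between -0.22 and 0.24 for the others. With 3 arrays per group these values cannot settle whether the samples are paired. Median differences of both sides moved by less than the spread between replicates under every alternative run. Of the 34 members, 21 kept the sign of their difference in all alternatives that tested them, and the 13 that turned were called with neither sign. The 13 isoform shifts moved by less than their pooled SD in all alternatives run, and 3 of them turned sign with 1 array left out. No member has a second cluster, so another cluster per gene was not run. Dim members (Slc2a3, Slc16a3, Eno3, Hk2) lie near background, which limits what their signals can show.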
